A study of Mus musculus with 2 samples.

Results

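The genes described here make, export and break down sphingosine-1-phosphate, a signalling lipid. They are the 5 genes Sphk1, Sphk2, Spns2, Mfsd2b and Sgpl1, chosen by symbol from the 27998 genes of the deposited count table, and all 5 had a row. The 2 sphingosine kinases, SPHK1 and SPHK2, phosphorylate sphingosine, SPNS2 and MFSD2B carry the product out of the cell, and the lyase SGPL1 cleaves it irreversibly. Red blood cells and platelets are known as large sources of the lipid in blood, and MFSD2B is known as the exporter of both, while SPNS2 is known as the exporter of endothelial cells.

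The data were 1 CITE-seq experiment on fetal livers of C57BL/6 mouse embryos at e13.5. Per the methods, Ter119+ cells were depleted, and an equal number of them was then returned to balance the erythroid stages. Values pooled over all erythroid stages depend on that mix. CITE-seq reads the mRNA and antibody barcodes of the same cells, so the deposit holds 1 cDNA library and 1 antibody library that share all 7863 cell barcodes. The cells were unperturbed, and livers of several embryos were pooled, so the library carries no spread between animals. Of these cells, 7244 passed limits on genes and mitochondrial share and were not called doublets, and 5992 of the kept cells were placed in 6 erythroid stages by the antibody counts of Ter119, which rises late in erythroid maturation, and CD71, the transferrin receptor. The stages were S0-low (1307 cells, low Ter119 and low CD71), S0-medium (1050 cells), S1 (609 cells, low Ter119 and high CD71), S2 (1295 cells, intermediate Ter119 and high CD71), S3 (836 cells, high Ter119 and high CD71) and S4/S5 (895 cells, high Ter119 and lower CD71). Clusters of the transcriptome made without the 5 genes gave 4 named non-erythroid classes, hepatocyte-like (189 cells), macrophage-like (80 cells), megakaryocyte-like (72 cells) and myeloid-like (269 cells), and 642 kept cells were in no group.

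Levels are pooled UMIs of a gene in a group of cells, scaled to 1000000 UMIs of all genes (CPM). Each has an exact 95% Poisson interval, given in brackets, and each ratio an exact interval, given in parentheses. These intervals cover counting error only, and with 1 library there are no replicates and no tests. A difference is called higher or lower when the ratio is at least 2 or at most 0.5 and its interval leaves out 1, among genes with at least 20 UMIs in both groups together. Globin genes took 1.09% of the UMIs in S0-low, 37.9% in S3 and 64.3% in S4/S5, so that every other gene was diluted late, and levels are also given with the globin genes left out of that total. Among the 6 stages, median UMIs per cell were highest in S0-medium (10282) and lowest in S4/S5 (3949). Kit, which encodes a receptor of early progenitors, stood at 66.7 CPM in S0-low and 5.14 CPM in S3. S0-low was mixed, since 20.9% of its cells were in an unnamed cluster led by Cd34 and Lsp1, genes of early progenitors and leukocytes, and the summed level of 14 myeloid markers was 355 CPM in S0-low and 80.3 CPM in S0-medium.

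On GRCm38 (mm10), the build of the count table, Sphk1 lies on the plus strand at chr11:116530836-116536675 and Sphk2 on the minus strand at chr7:45709463-45718002. The exporter genes are both on minus strands, Spns2 at chr11:72451638-72489976 and Mfsd2b at chr12:4862438-4874359, and so is Sgpl1 at chr10:61098642-61147684. RefSeq lists 10 start windows for the 5 genes on this build, 5 of them for Sphk1. The 250 bases upstream of the start of Mfsd2b, at chr12:4874360-4874609, are shown because this gene was read in every stage and was highest in megakaryocyte-like cells, a pair of lineages that share GATA factors. They are printed 5′ to 3′ on the minus strand, with the letters CACCC (a motif bound by KLF factors) in capitals.
Mfsd2b: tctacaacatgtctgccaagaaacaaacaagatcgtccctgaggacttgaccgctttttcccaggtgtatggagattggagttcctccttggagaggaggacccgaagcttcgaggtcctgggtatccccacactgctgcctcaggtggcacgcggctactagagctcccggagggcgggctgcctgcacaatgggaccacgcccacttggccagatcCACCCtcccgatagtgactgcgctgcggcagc
Neither AGATAA nor TGATAA, the usual forms of the GATA motif, was found on either strand of this window, and 16.6% of 32817 such windows over all genes held one of them. CACCC was found on either strand in 52.0% of all windows. Of the 10 windows of the 5 genes, 3 held a GATA motif, 2 overlapping ones of Sphk1 and the window of Spns2. The match in Spns2 is shown for comparison with 30 bases around it, at chr11:72475129-72475158 on the minus strand, with the reverse complement of AGATAA in capitals.
Spns2: gctctctgctccTTATCTgaggactttgta
The only start listed for Spns2 lies inside the gene, not at its outer end. A match of letters is a description and shows no binding.

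Sphk1, the kinase mostly found in the cytoplasm, peaked in the middle of the early stages. S0-low cells had 30.1 [26.7, 33.7] CPM, S0-medium cells 62.3 [57.6, 67.1] CPM and S1 cells 37.6 [32.9, 42.7] CPM. Later, S2 cells had 25.7 [22.5, 29.1] CPM, S3 cells 17.0 [13.4, 21.3] CPM and S4/S5 cells 8.34 [5.71, 11.8] CPM. The highest level was thus in S0-medium, and no interval of another stage reached it. This peak depended on the stage borders, since with log10 antibody counts S1 over S0-medium was 1.47. From S0-low to S0-medium the ratio was 2.07 (1.80 to 2.38), called higher, where 1.41% of 10523 genes were called higher, and it lay between 1.75 and 8.27 across 15 alternatives. From S0-medium to S1 it was 0.604 (0.518 to 0.702), below 1 but not called.

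The decline of Sphk1 after S2 depended on the denominator, while the one from S0-medium to S2 was seen on both scales. From S3 to S4/S5 the ratio was 0.491 (0.314 to 0.751), called lower, where 46.1% of 7463 genes were called lower. Outside the globin genes, Sphk1 stood at 63.1 CPM in S0-medium, 38.7 in S1, 29.6 in S2, 27.3 in S3 and 23.4 in S4/S5. S4/S5 over S3 was then 0.855 (0.547 to 1.31), not called, beside 5.41% of genes called lower on that scale. S3 over S0-low gave 0.565 (0.433 to 0.730) on all UMIs and 0.90 (0.690 to 1.16) outside the globin genes, not called on either scale. On all UMIs, S3 over S0-low of Sphk1 also turned with the stage borders. Scaling the antibody counts cell by cell made it 1.0, log10 counts 2.68 and classes from a Gaussian mixture 2.73.

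Sphk2, the kinase mostly found in the nucleus and mitochondria, was level early and low late. S0-low cells had 17.1 [14.6, 19.9] CPM, S0-medium cells 17.5 [15.1, 20.2] CPM and S1 cells 16.9 [13.9, 20.5] CPM, and these neighbours did not differ beyond their intervals. S2 cells had 11.8 [9.69, 14.2] CPM, S3 cells 5.81 [3.8, 8.52] CPM and S4/S5 cells, with 6 UMIs in all, 1.56 [0.574, 3.41] CPM. S3 over S2 was called lower at 0.493 (0.308 to 0.761), where 20.7% of genes were called lower, and S4/S5 over S3 at 0.269 (0.0906 to 0.669), beside 46.1%. Neither step was called outside the globin genes, at 0.688 (0.431 to 1.06) and 0.468 (0.158 to 1.16). S3 over S0-low was 0.340 (0.216 to 0.515), called lower, and outside the globin genes it was 0.541 (0.343 to 0.820), below 1 but not called. Unlike Sphk1, its level in the non-erythroid classes was never called different from that of all erythroid stages together (13.6 CPM), with 10.2 CPM in hepatocyte-like and 20.3 CPM in macrophage-like cells. Dbp and Rpl18 overlap Sphk2 on the opposite strand, Dbp over 741 bases at the 3′ ends and Rpl18 over 2536 bases. Whether strand was used in counting is not given in the sources used here. If it was not, reads of these genes may not be told apart. Dbp itself stood at 7.74 CPM in S0-low and 0.894 CPM in S3, and the level of Rpl18 was not examined.

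**Figure D1:**
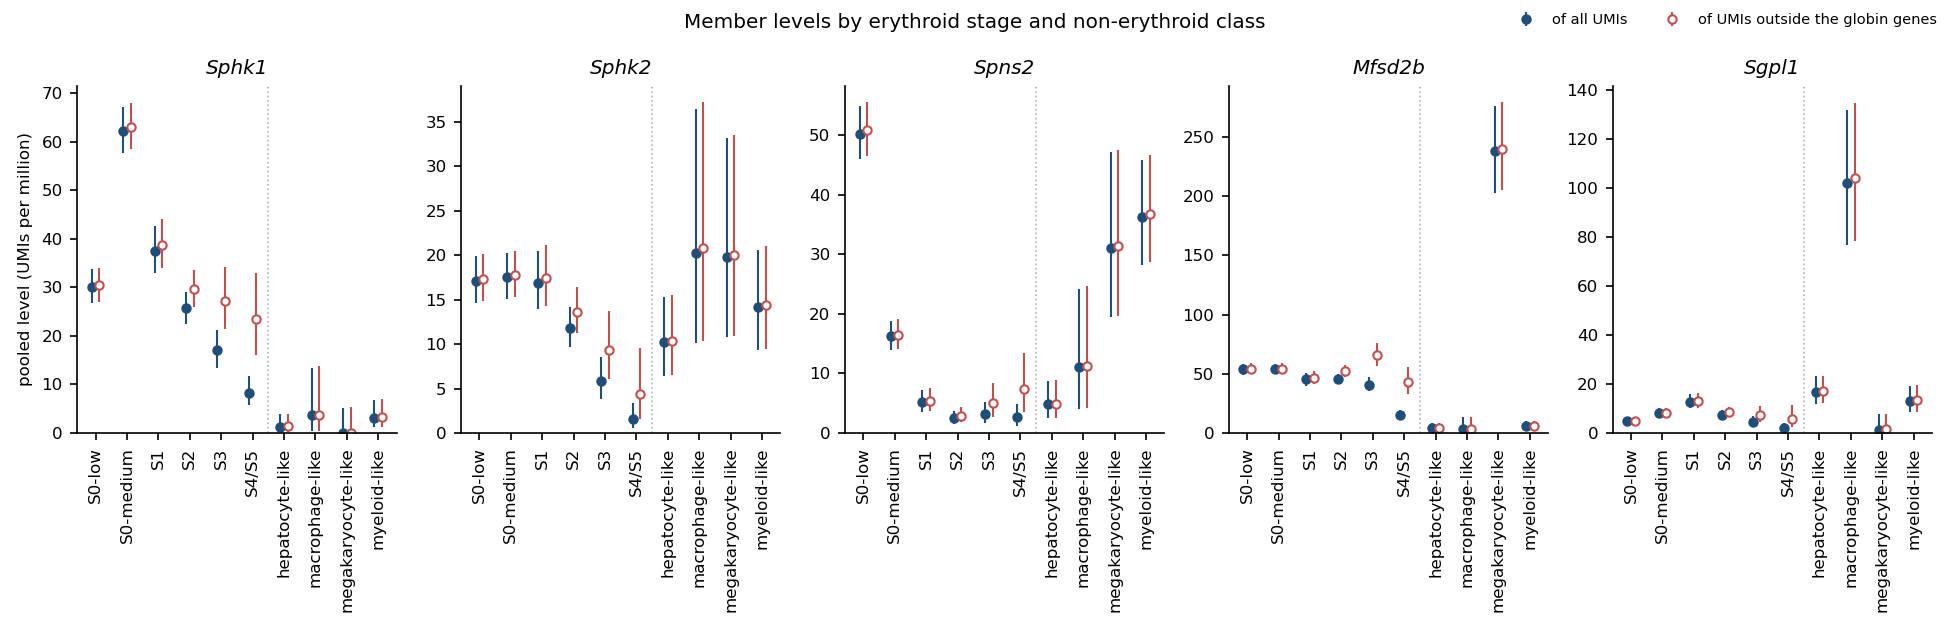
Pooled level of each gene, in CPM, in the 6 erythroid stages (left of the dotted line) and 4 non-erythroid classes, with exact 95% Poisson intervals, of all UMIs (filled) and of UMIs outside the globin genes (open). Sphk1 is highest in S0-medium, Spns2 in S0-low, Mfsd2b in megakaryocyte-like cells and Sgpl1 in macrophage-like cells, and the vertical scales differ between panels.

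Spns2, the exporter known from endothelium, was an early gene in these cells. S0-low cells had 50.2 [45.9, 54.9] CPM, S0-medium cells 16.2 [13.9, 18.8] CPM and S1 cells 5.16 [3.53, 7.29] CPM. It stayed low after that, with 2.49 [1.58, 3.74] CPM in S2 cells, 3.13 [1.71, 5.25] CPM in S3 cells and 2.61 [1.25, 4.80] CPM in S4/S5 cells, whose intervals overlapped. S0-low held 48.2% of all its UMIs in kept cells, against 18.0% of all UMIs. Each of the first 3 steps was called lower. The step to S0-medium had a ratio of 0.323 (0.270 to 0.385), where 11.3% of genes were called lower, but 0.543 with log10 antibody counts, past the limit of 0.5. The step to S1 had 0.318 (0.211 to 0.465), beside 2.97% of genes. The step to S2 had 0.482 (0.270 to 0.851), beside 9.99% of genes, and outside the globin genes that step was not called at 0.540 (0.302 to 0.952). S3 over S0-low was 0.0623 (0.0338 to 0.106) and outside the globin genes 0.0992 (0.0538 to 0.168), called lower on both scales. Across 15 alternatives this ratio lay between 0.0214 and 0.122. Mybbp1a overlaps the 3′ end of Spns2 by 133 bases, on the opposite strand. The long noncoding RNA gene Gm40194 overlaps Spns2 over 4436 bases, also on the opposite strand. If strand was not used in counting, reads of both genes may enter the count. Mybbp1a itself stood at 79.9 CPM in S0-low, 75.6 CPM in S0-medium and 12.7 CPM in S3. From S0-low to S0-medium its ratio was 0.947 (0.857 to 1.05), not called, unlike that of Spns2. The level of Gm40194 was not examined.

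Mfsd2b, the exporter known from red cells and platelets, differed by less than 2-fold among 5 of the 6 stages. S0-low cells had 53.7 [49.2, 58.5] CPM, S0-medium cells 53.7 [49.4, 58.2] CPM and S1 cells 45.2 [40, 50.8] CPM. S2 cells had 45.6 [41.3, 50.1] CPM, S3 cells 40.9 [35.2, 47.3] CPM and S4/S5 cells 15.4 [11.7, 19.8] CPM. No step before S4/S5 was called. S4/S5 over S3 was called lower at 0.376 (0.276 to 0.507), where 46.1% of genes were called lower. Outside the globin genes it was 0.654 (0.479 to 0.882), below 1 but not called, beside 5.41% of genes. The direction of S3 over S0-low turned with the denominator, from 0.762 (0.640 to 0.903) on all UMIs to 1.21 (1.02 to 1.44) outside the globin genes, and neither was called. Outside the globin genes, the level of Mfsd2b in S3, 65.8 [56.7, 76.1] CPM, was the highest of the 6 stages and that in S4/S5, 43.1 [32.8, 55.6] CPM, the lowest. Counted per cell, Mfsd2b had 0.403 UMIs in S0-low, 0.219 in S3 and 0.0659 in S4/S5. Fewer molecules per cell and a greater share of globin mRNA cannot be told apart from these shares.

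Sgpl1, the lyase, was low throughout erythroid cells, with its highest stage level in S1 (with log10 antibody counts S2 over S1 was 1.34, so that S2 was higher). S0-low cells had 4.69 [3.43, 6.25] CPM, S0-medium cells 8.21 [6.59, 10.1] CPM and S1 cells 12.7 [10.1, 15.9] CPM. S2 cells had 7.36 [5.72, 9.33] CPM, S3 cells 4.47 [2.73, 6.91] CPM and S4/S5 cells, with 8 UMIs in all, 2.09 [0.901, 4.11] CPM. Both early steps had intervals above 1 without reaching a ratio of 2, at 1.75 (1.21 to 2.56) and 1.55 (1.13 to 2.13). S3 over S0-low was 0.954 (0.535 to 1.65), so that neither a moderate rise nor a moderate decline was detectable at this depth. Outside the globin genes that ratio was 1.52 (0.851 to 2.62), also not called. S4/S5 over S0-low was 0.445 (0.181 to 0.952), called lower beside 84.5% of all genes. With the globin genes left out it was 1.23 (0.503 to 2.64), not called. Levels on that scale were 4.74 CPM in S0-low, 13.1 in S1, 7.20 in S3 and 5.84 in S4/S5.

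Over all 5 genes, S3 over S0-low was called lower for 2, Sphk2 and Spns2, and higher for none, with a median log2 ratio of -0.82. Of 10145 genes tested, 62.9% were called lower and 6.07% higher, and their median was -1.40. Outside the globin genes, 1 of the 5, Spns2, was called lower beside 38.1% of all genes, and the medians were -0.15 for the 5 genes and -0.73 for all.

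The members were also read along CD71 without class borders. The 2966 stage cells with low Ter119 were ordered by their CD71 count and split into 10 equal bins, with 296 or 297 cells each and median CD71 counts from 16 to 1520. Spns2 was highest in the bins of low CD71, with 65.5 [53.3, 79.6] CPM in bin 1, 68.5 [58.0, 80.2] in bin 2, 29.9 in bin 4, 19.5 in bin 6 and 4.67 [2.55, 7.83] in bin 10. Sphk1 was near 0 in the lowest bin, with 1 UMI or 0.655 [0.0166, 3.65] CPM in bin 1 and 12.5 [8.32, 18.1] in bin 2. It reached 42.5 [34.6, 51.6] CPM in bin 3 and 76.3 [67.0, 86.5] in bin 6, and stood at 33.3 [27.1, 40.6] in bin 10. Mfsd2b lay at 27.5 [19.8, 37.2] CPM in bin 1 and between 42.0 and 62.6 CPM in all others. Sgpl1 had 2 UMIs, 0.895 [0.108, 3.23] CPM, in bin 2 and 13.7 [9.85, 18.6] CPM in bin 9. Sphk2 stayed between 13.8 and 21.0 CPM, with overlapping intervals throughout.

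The lowest bins were mixed. The cluster led by Cd34 and Lsp1 held 66.3% of the cells of bin 1, 23.6% of bin 2 and at most 1.68% of each later bin. Without these cells, an alternative chosen after seeing the data, bin 1 kept 100 cells, with 0 UMIs of Sphk1 among 533405 UMIs, which by 3 counts allows up to 5.62 CPM, and 101 [76.1, 132] CPM of Spns2. Bin 2 then had 16.8 [11.2, 24.3] CPM of Sphk1 and 83.0 [69.7, 98.0] CPM of Spns2. For Mfsd2b the low start was gone, with 69.4 [48.8, 95.6] CPM in bin 1 and 82.4 [69.1, 97.4] CPM in bin 2, against 42.1 [35.1, 50.1] CPM in bin 10.

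**Figure D2:**
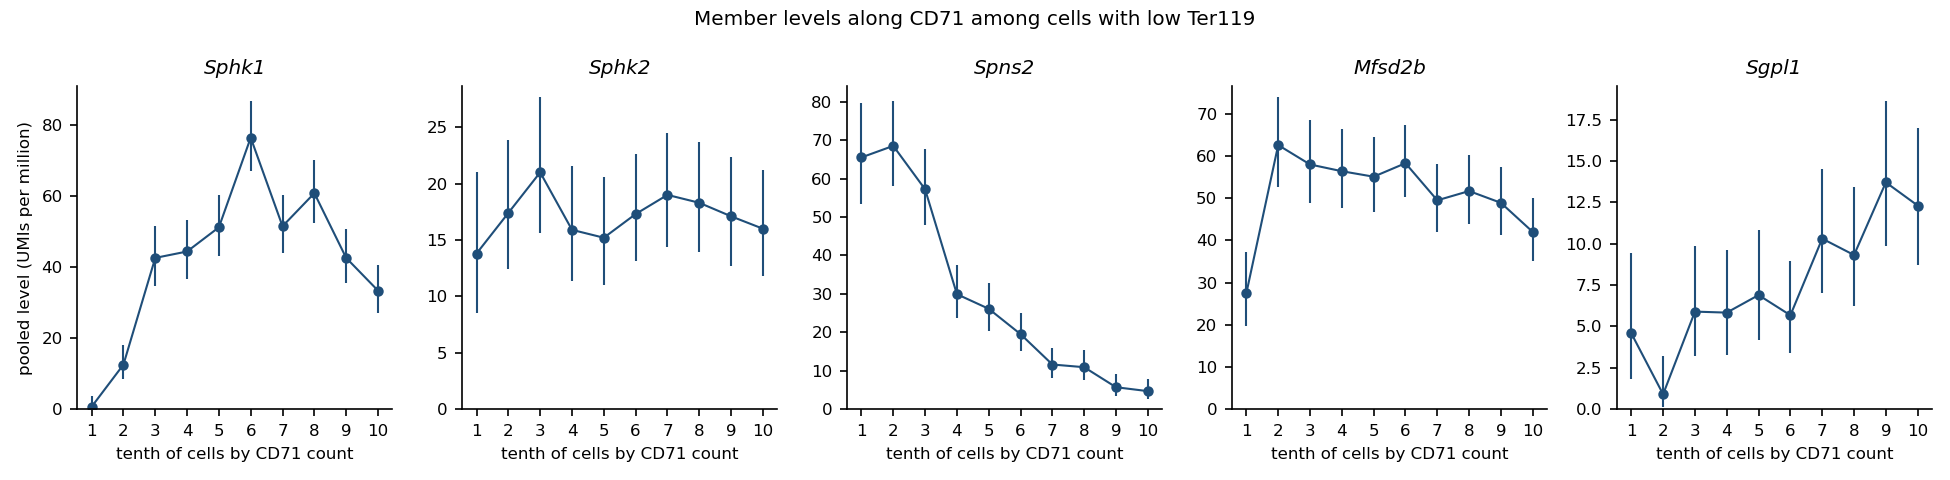
Pooled level of each gene (CPM, exact 95% Poisson intervals) in 10 equal bins of the stage cells with low Ter119, ordered by CD71 count from lowest (1) to highest (10). Spns2 goes from 65.5 to 4.67 CPM, Sphk1 from 0.655 through 76.3 to 33.3 CPM, and Sphk2 stays between 13.8 and 21.0 CPM.

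Transcriptome clusters showed the same genes apart within 1 antibody stage. In S0-low, the 238 cells of cluster 5, with Gata2 and Car1 among its leading genes, had 112 [98.0, 128] CPM of Spns2, 82.7 [70.7, 96.2] of Mfsd2b and 4.89 [2.35, 9.0] of Sphk1. These cells therefore carried both exporter transcripts with little of the kinase transcript Sphk1, while Sphk2 stood at 18.1 [12.8, 25] CPM and Sgpl1 at 0.489 CPM from 1 UMI. The summed level of 11 megakaryocyte markers, all with UMIs, was 474 CPM in these cells, 364 CPM in cluster 13 and 200 to 227 CPM in clusters 4, 6, 7 and 11 of S0-low, and its part in the difference was not tested. The 188 cells of cluster 6 had all 3 transcripts, with 50.8 [42.3, 60.5] CPM of Sphk1, 47.2 [39.0, 56.6] of Spns2 and 52.8 [44.2, 62.8] of Mfsd2b. The 458 cells of cluster 7 had 43.0 [35.4, 51.6] CPM of Sphk1 and 27.9 [21.9, 35.0] of Spns2.

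The cluster led by Cd34 and Lsp1 was different. Its 273 cells in S0-low had 39.1 [30, 50] CPM of Spns2, but only 1.86 [0.383, 5.43] of Sphk1 and 4.96 [2.14, 9.77] of Mfsd2b. Leaving this cluster and one led by Lyve1 and Dcn out of the stages, an alternative chosen after seeing the data, changed the ratio of Sphk1 from S0-low to S0-medium to 1.75, below the limit of 2. In S0-medium, cluster 4 had the most cells (377) and 68.8 [61.9, 76.3] CPM of Sphk1 with 12.8 [9.90, 16.2] of Spns2. Sphk1 was among the 10 leading genes of cluster 4 and Spns2 among those of cluster 5, although neither was used in clustering.

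**Figure D3:**
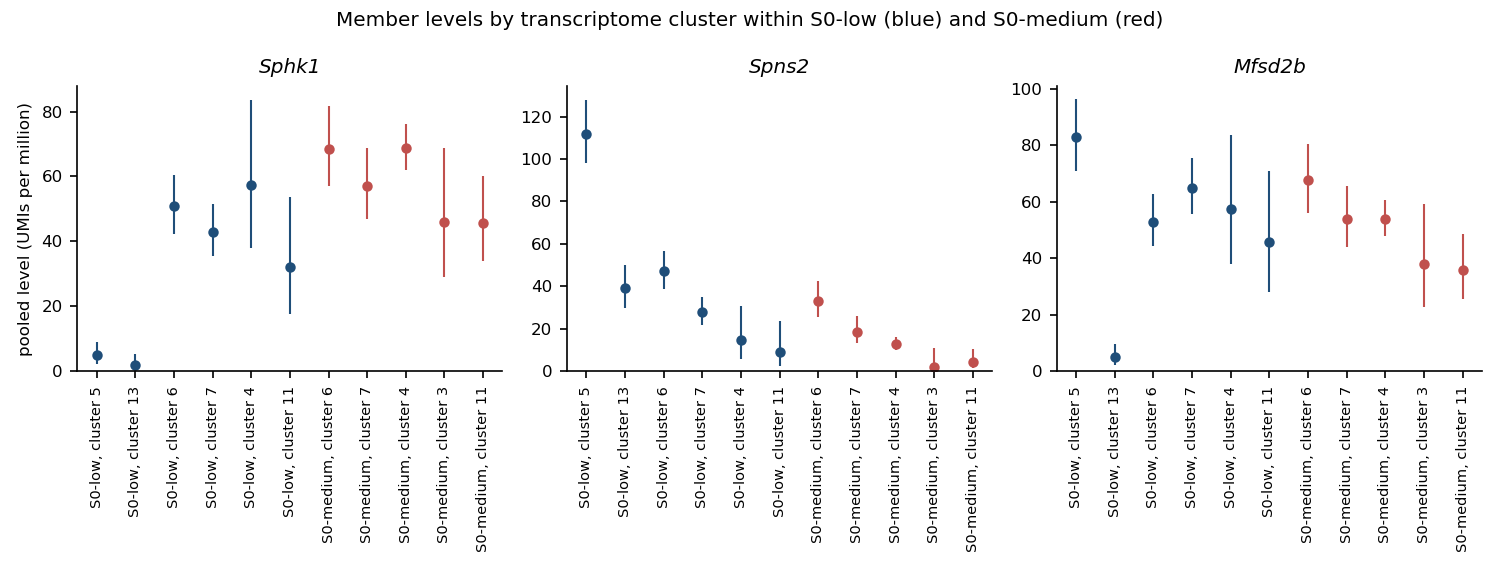
Pooled level of Sphk1, Spns2 and Mfsd2b (CPM, exact 95% Poisson intervals) in the main transcriptome clusters of S0-low (blue) and S0-medium (red) cells. In S0-low, cluster 5 has 112 CPM of Spns2 and 4.89 CPM of Sphk1, and cluster 13, led by Cd34 and Lsp1, has 39.1 CPM of Spns2 with 4.96 CPM of Mfsd2b.

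Outside the erythroid stages, Mfsd2b was highest in megakaryocyte-like cells, the precursors of platelets, which were led by Pf4 and Ppbp. Its 168 UMIs there gave 238 [203, 276] CPM against 46.2 [44.2, 48.3] in all erythroid stages, a ratio of 5.14 (4.37 to 6.02), called higher beside 21.1% of 11343 genes. With clusters drawn at resolutions of 0.4 and 1.2, this ratio was 2.48 and 2.95, where the class named megakaryocyte-like held 382 and 296 UMIs of the gene. After each cell was thinned to 2000 UMIs, 41.7% of megakaryocyte-like cells had a UMI of Mfsd2b, against 0.529% of hepatocyte-like cells, which should lack it and were deeper (median 13001 against 8939 UMIs). Unthinned, the shares were 72.2% and 5.29%. The thinned share ran from 9.18% in S0-low to 3.13% in S4/S5, above the hepatocyte-like share in each stage. The hepatocyte-like interval reached 2.91%, so that it overlapped the interval of S4/S5.

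Sphk1 was not detected in megakaryocyte-like cells. It had 0 of 706897 UMIs there, which by a limit of 3 counts allows up to 4.24 CPM, beside 34.9 [33.1, 36.6] CPM in all erythroid stages, and was called lower with 8.17% of genes. Sphk2 was present at 19.8 [10.8, 33.2] CPM and Spns2 at 31.1 [19.5, 47.1] CPM, neither called. The ratio of Spns2 to all erythroid stages, 1.85 (1.15 to 2.82) from 22 UMIs, was 8.27 and 5.90 at resolutions of 0.4 and 1.2, where the class held 304 and 192 UMIs of Spns2. Sgpl1 had 1 UMI. In the main setting, the megakaryocyte-like cells thus had Sphk2 as the only kinase transcript detected and both exporter transcripts. Across 7 alternatives the ratio of Sphk1 to all erythroid stages lay between 0 and 0.0868, so Sphk1 was not absent in all of them.

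Macrophage-like cells, which in fetal liver include the central cells of erythroblastic islands, were led by C1qa, Marco and Timd4. They had the highest level of the lyase transcript among the classes. Sgpl1 stood at 102 [76.6, 132] CPM, 14.6 times its level in all erythroid stages (10.7 to 19.4), called higher beside 19.4% of genes. After thinning, 16 of the 80 macrophage-like cells had a UMI of Sgpl1 against 70 of the 5992 stage cells (1.17%), at median depths of 6304 and 5600.5 UMIs. Sphk1 and Mfsd2b had 2 UMIs each, 3.70 [0.448, 13.3] CPM, and were called lower beside 10.3% of genes. Sphk2, at 20.3 CPM from 11 UMIs, and Spns2, at 11.1 CPM from 6 UMIs, were not called. Hepatocyte-like cells also had more Sgpl1, 16.8 [11.9, 23.1] CPM and a ratio of 2.41 (1.67 to 3.39), beside 21.8% of genes called higher. Sphk1, Spns2 and Mfsd2b were called lower in them, at 1.33, 4.87 and 4.43 CPM, beside 17.7% of genes.

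Myeloid-like cells, led by Ngp, Camp and S100a8, had Spns2 at 36.2 [28.1, 45.8] CPM. This was 2.15 times its 16.8 CPM in all erythroid stages together (1.65 to 2.75), called higher beside 19.9% of genes. Among the single stages Spns2 ran from 50.2 CPM in S0-low, above the myeloid-like level, to 2.49 CPM in S2. With doublets kept, the class held 7 UMIs of Spns2 and the ratio was 0.489. The call was also lost outside the globin genes, at 1.90. Sphk1 and Mfsd2b were called lower at 3.15 [1.15, 6.85] and 5.77 [2.88, 10.3] CPM, beside 7.04% of genes. Across the 4 classes Sphk1 was therefore called lower in each, and Mfsd2b in each but the megakaryocyte-like cells.

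Another 6 lists of sphingolipid genes, 49 genes together, gave the setting. From S0-low to S3, 35 of the 49 could be tested, of which 25 were called lower, 1 higher and 9 neither, beside 62.9% of all genes called lower and 6.07% higher, with a median log2 ratio of -1.81 beside -1.40 for all genes. Outside the globin genes, 17 were called lower and 3 higher, the last being Plpp1, Apom and Sgms1, beside 38.1% and 10.5% of all genes. Of all UMIs, Apom stood at 15.4 CPM in S0-low and 30.2 CPM in S3. In the same stages the summed level of 14 hepatocyte markers was 299 and 598 CPM, and its part in the values of Apom was not tested.

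Among enzymes that remove the lipid's phosphate or use its breakdown products, Plpp1, a lipid phosphatase of the cell surface, was the 1 gene called higher. Its level was 3.77 CPM in S0-low, 18.9 CPM in S1, 27.5 CPM in S2 and 15.4 CPM in S3, and S3 over S0-low was 4.09 (2.71 to 6.28). Its relative Plpp2 went the other way, from 20.6 to 1.12 CPM, a ratio of 0.0543 (0.0174 to 0.129). Aldh3a2, which oxidises the aldehyde released by the lyase, went from 5.81 to 0.671 CPM.

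Of the 5 receptors, S1pr1, S1pr2 and S1pr4 were called lower from S0-low to S3, beside 62.9% of all genes. S1pr3 and S1pr5 had too few UMIs to test. Outside the globin genes, S1pr4 was still called lower at 0.125 (0.0495 to 0.262), beside 38.1% of all genes. On that scale S1pr1 at 0.537 and S1pr2 at 0.166 were not called. S1pr4, a receptor of blood cells, had 196 UMIs in S0-low and 7 in S3, a ratio of 0.0784 (0.0311 to 0.165), and stood at 26.2 CPM in myeloid-like cells. S1pr1 was scarce in the stages (2.65 to 0.541 CPM) and stood at 16 CPM in hepatocyte-like cells. Apom, the plasma carrier of the lipid on HDL, stood at 4427 CPM in hepatocyte-like cells and 15.4 CPM in S0-low, and was chosen after its values were seen.

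Among the ceramidases, which release sphingosine, Asah1 was called lower from S0-low (22.4 CPM) to S3 (7.38 CPM) and stood at 307 CPM in macrophage-like cells, 24.5 times all erythroid stages (20.5 to 29.2). In ceramide synthesis, 9 of 12 tested genes were called lower, beside 62.9% of all genes, among them the ceramide synthases Cers4, Cers5 and Cers6 and the reductase Kdsr. Of 8 tested genes of ceramide and sphingomyelin use, 6 were called lower, such as Ugcg, which makes glucosylceramide, from 108 CPM in S0-low through 44.8 in S1 to 13.4 in S3, with Smpd2 and Cerk. All 4 tested genes of related lipid transporters were called lower. With the globin genes left out, 7 of the 12 synthesis genes, 3 of the 8 genes of use (Ugcg, Smpd2 and Cerk) and the 4 transporter genes were called lower, while Asah1 was not, beside 38.1% of all genes. Spns1, a lysosomal lysophospholipid transporter, went from 32.5 to 5.81 CPM in the stages and stood at 327 CPM in megakaryocyte-like cells, against 16.3 CPM in all erythroid stages. Spns3 went from 9.88 to 0.894 CPM, Abcc1 from 12.2 to 1.34 CPM and Abca1 from 2.24 to 0.224 CPM. Abca1 stood at 1.19 CPM in S2 and 1.30 CPM in S4/S5, and was not called in S4/S5 over S0-low. S1pr2, Cers4, Smpd2 and Abca1 each stood at 0.224 CPM in S3, so their calls rest on very few UMIs there. In myeloid-like cells Spns3 stood at 45.6 CPM. The part of the cluster led by Cd34 and Lsp1 in the S0-low levels of these genes was not tested. Mfsd2a, the nearest relative of Mfsd2b, had 0 UMIs in both stages.

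**Figure D4:**
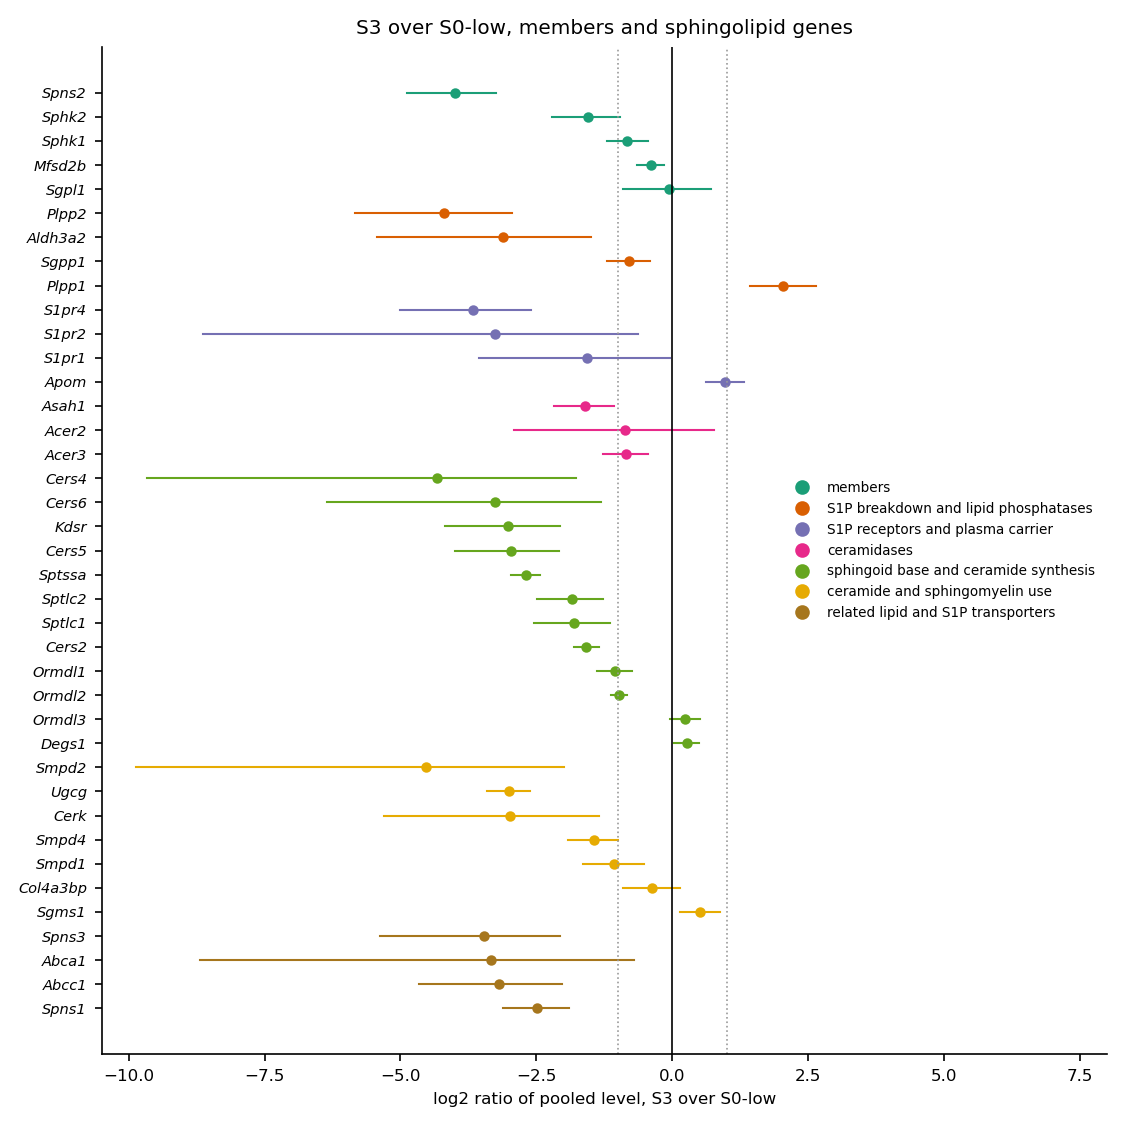
Log2 ratio of the pooled level in S3 over S0-low with exact 95% intervals, for the 5 genes and the tested genes of 6 sphingolipid lists, coloured by list, with 1 of the 35 not drawn. The solid line marks no difference and dotted lines a ratio of 0.5 or 2. Most genes lie left of the dotted line, Spns2 among the farthest, while Plpp1 alone lies right of the other dotted line.

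The genes whose levels ran most like those of each member were sought over the 10 groups (6 stages and 4 classes) among 8978 genes, by Pearson's r of log2(CPM + 10). The groups share 1 library and differ in depth and globin share. For Sphk1 the nearest were Ppm1l (r = 0.984), Prss50, Steap3, Tmem56 and Hesx1, of which Prss50 and Hesx1 also led cluster 4. For Spns2 they were Dnmt3b (r = 0.973), Sox4, Mfng, Plxnc1 and Rab38. Mfsd2b ran with Acap3 (r = 0.966), Zfpm1, which encodes the GATA1 cofactor FOG1, Samd14, 1110020A21Rik and Slc14a1. Sphk2 ran with Ei24 (r = 0.994), Recql5, Klc1, Angel2 and Chmp7, and Sgpl1 with Parp9 (r = 0.967), Lgals8, Ifnar2, Zfyve26 and Rxra. Over the 6 stages alone, 0 of each gene's 5 neighbours stayed the same. Among the members themselves, the 2 kinases had r = 0.10 over the 10 groups and 0.92 over the 6 stages, and the 2 exporters 0.26 and 0.52.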

How the data were processed

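Per the labels, the authors ran Cell Ranger on the cDNA reads (mm10) and deposited raw UMI counts per gene and cell, and antibody counts per cell, both without normalization. The methods state 10x 3′ chemistry, so gene length does not enter. Use of strand in counting is not given in the sources used here. Whether antibody reads were collapsed by molecular identifier is not given either. The cDNA library held 58606632 UMIs, with 2510 to 38047 per cell.

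Cells outside 300 to 5000 genes, or above 9% mitochondrial UMIs, were removed (508 cells). Scrublet (expected rate 6%) called 128 doublets (1.63%). Each antibody's counts were centred as log ratios over cells. Cells whose summed counts of 5 lineage antibodies exceeded 95.8 (median plus 2 scaled median absolute deviations on a log scale) left the stages. K-means set the borders, at 24.5 and 88.5 counts for Ter119 and 233, 765 and, at high Ter119, 746 for CD71. S2 took cells of intermediate Ter119 with CD71 above 765 counts, and those below that border were in no stage. Leiden clusters (2000 variable genes, 16 components, 30 neighbours, resolution 0.8) left out the 5 genes and the 49 pathway genes. A cluster was named when at least 3 of its 10 leading genes were markers of 1 type and at most 1 of another, a rule set after the clusters were seen. Named clusters left the stages.

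Genes were named by rule. These were all members, up to 4 called genes per pathway list with the largest S3 over S0-low ratio and at least 50 UMIs, the 5 most alike genes among those with at least 200 UMIs, stage markers and cluster markers. The members and lists were chosen with earlier results of these data known. Ratios and gates were run on simulated data. The simulated counts followed the Poisson model that the intervals assume, and the simulated populations lay well apart in antibody counts. Such runs check the code and cannot show that the borders in the real cells are right. Alternatives changed antibody scaling, classes, filters, doublets, clustering, denominator and depth. Software was scanpy 1.11.5, scikit-learn 1.9.0, igraph 0.11.9 and scipy 1.17.1 under Python 3.11.15, with seed 7. Some genes that the rule takes are not reported here. Windows before gene starts came from RefSeq (GRCm38.p6).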

Additional observations from a re-analysis of the deposited data

How the results depend on the processing

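No paired analysis was possible because the labels name 1 cDNA library and 1 antibody library made from the same cells, so there is nothing to pair and no replicate to leave out. Values moved with the stage borders and with the denominator. With antibodies scaled within each cell, S0-medium over S0-low of Sphk1 was 5.31, and S3 over S0-low was 1.0 for Sphk1, 0.189 for Sphk2 and 0.0214 for Spns2. With log10 antibody counts, S0-medium over S0-low was 6.28 for Sphk1 and 0.543 for Spns2, S3 over S0-low was 2.68 for Sphk1, 0.951 for Mfsd2b and 1.72 for Sgpl1, S1 over S0-medium of Sphk1 was 1.47 and S2 over S1 of Sgpl1 was 1.34. With a Gaussian mixture, S0-medium over S0-low was 8.27 for Sphk1 and 0.465 for Spns2, and S3 over S0-low was 2.73 for Sphk1 and 0.936 for Mfsd2b. Terciles of CD71 gave 2.85 for S0-medium over S0-low and 0.830 for S3 over S0-low of Sphk1. S0-medium over S0-low of Sphk1 was 2.52 with no lineage limit, 2.42 with non-erythroid cells kept and 1.75 without the 2 unnamed clusters, the last chosen after seeing the data. With globin genes left out, S3 over S0-low was 0.90 for Sphk1, 0.541 for Sphk2 and 1.21 for Mfsd2b, and 3863 genes were called lower (6377 otherwise) and 1070 higher (616 otherwise), with 3 pathway genes higher (1 otherwise). As UMIs per cell, S0-medium over S0-low was 2.85 for Sphk1 and 0.444 for Spns2, and S3 over S0-low 0.403 for Sphk1 and 0.543 for Mfsd2b. Thinned to 2000 UMIs, S3 over S0-low was 0.433 for Sphk1 and 0.122 for Spns2. The megakaryocyte-like ratio of Mfsd2b was 6.03 as a mean over cells, 6.81 per cell, 6.66 thinned, 2.48 at resolution 0.4 and 2.95 at 1.2, and the macrophage-like ratio of Sgpl1 was 19.8 thinned. With doublets kept, the myeloid-like ratio of Spns2 was 0.489. A fold of 1.5 called 2 pathway genes higher. Leaving the globin UMIs out of the denominator raises every level by construction, and most where the globin share is high. Ratios of S3 over S0-low were thus higher and those of the classes over all erythroid stages lower. For Mfsd2b in megakaryocyte-like cells the ratio was 4.51, against 5.14 on all UMIs. For the other alternatives the cause was not tested. Of 131 values behind the main comparisons, 94 stayed within the main interval or within 1.5 times the main count. Sphk2 and Sgpl1 rest on few UMIs late (6 and 8 in S4/S5), so ratios there are wide.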

Other observations

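Along cKit, the receptor of early progenitors, all kept cells were ordered and split into 10 equal bins. Spns2 went from 0.335 [0.00848, 1.87] CPM in the lowest bin of cKit to 59.2 [54.2, 64.5] CPM in the highest, and Sphk1 from 8.71 [5.69, 12.8] to 37.7 [33.8, 42.1] CPM, after 45.2 [40.6, 50.2] CPM in bin 9. Sgpl1 had 4.69 [2.56, 7.87] CPM in the lowest and 4.70 [3.38, 6.38] CPM in the highest bin of cKit. Outside the globin genes Sgpl1 had 8.30 CPM in the lowest bin and 4.76 CPM in the highest. It stood highest in bin 6, where 82 UMIs gave an interval from 10.8 to 16.8 CPM. In the highest bin of CD41, the integrin of megakaryocytes and early progenitors, Sphk1 stood at 5.66 [3.97, 7.84] CPM against 23.4 to 41.5 CPM in the other bins. In the same cells Spns2 stood at 43.4 [38.4, 48.9] CPM and Sgpl1 at 17.1 [14.1, 20.7] CPM, and 9.94% of them were megakaryocyte-like.

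An unnamed cluster of 75 cells carried embryonic globin genes, with 81.7% of its UMIs from globin genes. It had 0 UMIs of Sphk1, Sphk2, Mfsd2b and Sgpl1 and 1 of Spns2 among 381055 UMIs, and by a limit of 3 counts 0 UMIs allow up to 7.87 CPM. Mfsd2b stood at 15.4 [11.7, 19.8] CPM in S4/S5, which held 40 of these cells. Outside the globin genes the interval of the ratio to S4/S5 reached 1.26, so a difference was not detectable on that scale.

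The unnamed cluster of 59 cells led by Lyve1 and Dcn, genes of endothelium and of mesenchyme, had Spns2 at 31.4 [17.6, 51.8] CPM and Sgpl1 at 31.4 [17.6, 51.8] CPM, from 15 UMIs each, and Mfsd2b at 4.19 CPM from 2 UMIs. Plpp1 stood at 358 CPM in these cells. Over the 130 kept cells with at least 3 of 11 endothelial markers, 45 of them in that cluster, Spns2 stood at 36.8 [27.3, 48.5] CPM. These cells were mixed, since 30 of them were megakaryocyte-like and held 102 of the 130 UMIs of Mfsd2b, while the 45 held 1.

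Within S0-low, 43.3% of the 210 cells with a UMI of Sphk1 also had one of Mfsd2b, against 25.8% of the 1097 cells without. Depth differs between such cells, and after thinning to 2000 UMIs the shares were 14.5% [6.86, 25.8] of 62 cells and 8.92% [7.39, 10.6] of 1245 cells, whose intervals overlap.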
